A study of Mus musculus with 14 samples.

Results

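The genes described here are 35 mouse genes of the DNA damage checkpoint and of DNA repair, followed through early T cell development and into early T cell precursor leukemia (ETP-ALL). They were chosen by name and function, with earlier results of these data known: 4 checkpoint kinases, 3 genes of the break sensing complex, 8 of homologous recombination, 5 of end joining, 3 of the Fanconi anemia pathway, 2 RecQ helicases, 6 of base excision and single-strand break repair, 2 of mismatch repair and 2 of nucleotide excision repair. All 35 were found on the arrays and passed the filter on dim probes, among 26935 features tested, of which 14435 were named genes. The scanner files name each probe by a sequence accession, so a gene was identified through its RefSeq accession and the probe with the highest mean over all arrays stood for the gene.

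As background, the kinases Atm and Atr sense double-strand breaks and stalled replication forks and signal through Chek2 and Chek1 to p53 and to the cell cycle machinery. Breaks are repaired either by homologous recombination, which copies the sister chromatid and is used mainly during and after replication, or by end joining, which works throughout the cell cycle. In the thymus the end joining factors also complete the cutting and joining of the T cell receptor genes, which begins at the double-negative stages studied here.

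The arrays were Agilent 1-colour arrays of mouse thymic cells on the C57BL/6 background. The donors of the bone marrow carried Cre-ERT2 alone (called WT), Cre-ERT2 with Ezh2flox/flox, Cre-ERT2 with p53flox/flox, or Cre-ERT2 with both floxed genes, so every group carries the inducible Cre, including the controls. The recipients were lethally irradiated wild-type mice with the CD45.1+ marker and Ezh2, p53 (the gene Trp53) or both were deleted 4 weeks after the graft. Cells without leukemia were taken at 3 months. These cells lacked CD4 and CD8 and were sorted by CD44 and CD25 into DN1 (only CD44 present, CD44+CD25-), DN2 (both present) and DN3 (only CD25 present). Each of the 4 genotypes had 1 array at each of the 3 stages, 12 in all; the deleted genotypes are written Ezh2Δ/Δ, p53Δ/Δ and, for the loss of both (Ezh2Δ/Δp53Δ/Δ), double-deleted. The other 2 arrays hold DN2-gated leukemic cells of 2 double-deleted mice with ETP-ALL, mouse 13 and mouse 19, for which the labels give no time. The labels do not say whether the 3 stages of a genotype came from the same or from separate mice, so a p-value between genotypes measures how well the stages agree, which is not a spread over animals. The sample labels name the thymus as the source while their protocol text speaks of bone marrow cells, and no gate on a donor marker is described, so recipient cells that remained are not told apart.

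All levels below are log2 of the processed intensity minus the log2 of the array's 75th percentile, so that 1 unit is a doubling of signal and a level of 0 is the intensity of the probe at that percentile. Levels of different probes are not comparable with each other, so each gene is compared only with itself. The share of probes that stood well above background ran from 40.3% to 50.4%, and precision is limited by how few arrays there are. Of the 35 genes, 31 were well above background on all 14 arrays; Chek1 was so on 10, Palb2 on 11, Fancd2 on 9 and Brca1 on only 2. The 75th percentile itself lay between 61.3 and 123 intensity units on the 6 Ezh2Δ/Δ and p53Δ/Δ arrays and between 271 and 524 on the other 8. Those 6 arrays share slide 2, WT and double-deleted DN2 and DN3 share slide 1, double-deleted DN1 is alone on slide 3, and both leukemias are on slide 4. WT or double-deleted cells against Ezh2Δ/Δ or p53Δ/Δ cells therefore cannot be told apart from slide 1 or 3 against slide 2, and leukemic against non-leukemic cells cannot be told apart from slide 4 against the rest. The Trp53 probe read between 0.11 and 1.68 on the WT and Ezh2Δ/Δ arrays, between -5.36 and -3.50 on the p53Δ/Δ arrays, at -3.88, -2.40 and -0.92 in double-deleted DN1, DN2 and DN3, and at -5.86 and -3.85 in leukemias 13 and 19. The Ezh2 probe read between 2.78 and 3.89 on the Ezh2Δ/Δ arrays and between 2.36 and 4.43 on the WT arrays, and at 3.83, 4.32 and 4.01 in double-deleted DN1, DN2 and DN3 and 2.74 and 3.62 in leukemias 13 and 19. It therefore does not check the Ezh2 deletion in any group, and the deleted groups are named by their labels. Il2ra, which encodes CD25, read between 0.52 and 2.59 on the DN1 arrays and between 5.42 and 7.74 on the DN2 arrays, as the gates require, and of 12 markers of early T cells all were well above background on every array except that of leukemia 13, which had 11.

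**Figure D1:**
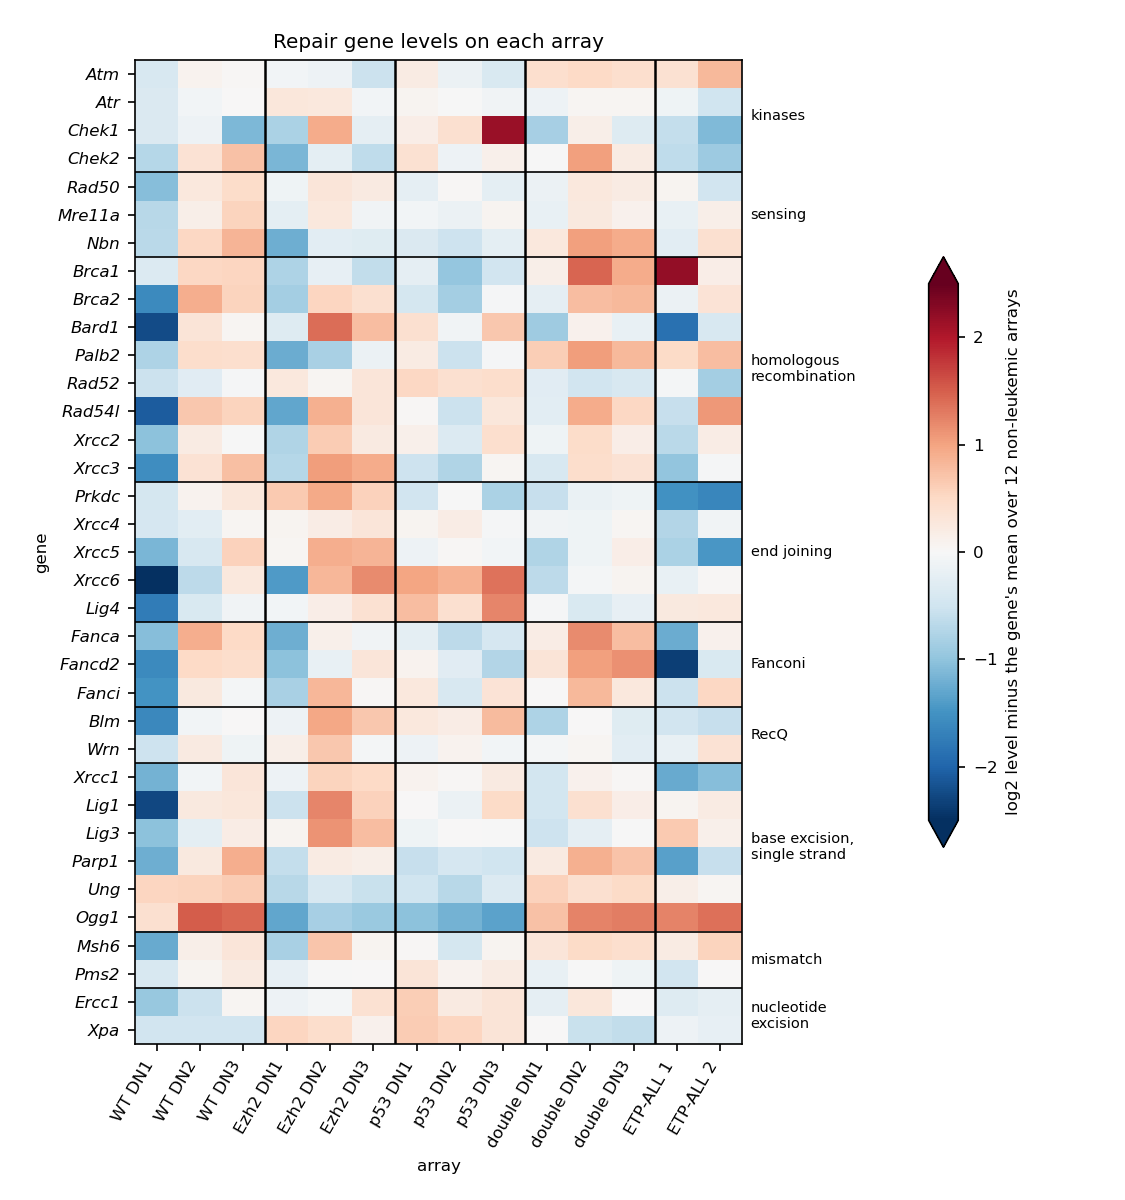
Level of each of the 35 repair genes (rows, grouped by role) on each of the 14 arrays (columns, grouped by genotype, DN1 to DN3 from left to right, then both leukemias), as the log2 level minus that gene's mean over the 12 non-leukemic arrays; the colour scale is capped at both ends. The WT DN1 column is blue for most genes, Ogg1 and Ung are blue over the 6 Ezh2Δ/Δ and p53Δ/Δ arrays, and Prkdc is blue in both leukemias.

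The first comparison asked how the repair genes differ between DN1 and DN2 cells, over 4 genotypes. In the fit over all 12 non-leukemic arrays, 32 of the 35 genes had a higher level at DN2 and the median difference was 0.60, against 0.14 over all features, of which 61.9% were higher at DN2. None of the 35 passed the threshold (limma, adjusted p under 0.05), and the smallest adjusted p was 0.171. An unadjusted p under 0.05 was found for 16 of the 35, and for 5337 of all 26935 features. Over all features 371 were called, which is 1.38%. The median difference was largest in the Fanconi group (0.88) and in homologous recombination (0.87), and was -0.02 in nucleotide excision repair.

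The genotypes differed in this step. From DN1 to DN2 the median difference of the 35 genes was 1.12 in WT, 0.80 in Ezh2Δ/Δ and 0.57 in double-deleted cells, where 34, 31 and 30 genes were higher at DN2. In p53Δ/Δ cells it was -0.16, and 27 of 35 genes were lower at DN2. WT and Ezh2Δ/Δ cells had 20 and 13 genes with a difference over 1 log2 unit, double-deleted cells had 3 and p53Δ/Δ cells had 0. These are 57.1%, 37.1%, 8.57% and 0% of the 35 genes, against 14.4%, 18.1%, 7.89% and 7.22% of all features. The share in double-deleted cells was thus near that of all features. The median difference of all features was 0.09, 0.31, 0.11 and -0.0018 in the same order. The Ezh2Δ/Δ and p53Δ/Δ values come from the same slide, the WT values from slide 1, and the double-deleted value crosses slides 3 and 1. Step by step, 21 genes had a positive difference in WT, Ezh2Δ/Δ and double-deleted cells and a negative one in p53Δ/Δ cells, and the p53Δ/Δ step was the smallest of the 4 for 29 genes.

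The median level was lowest in WT cells at DN1 and in p53Δ/Δ cells at DN2. That of p53Δ/Δ cells was above that of Ezh2Δ/Δ cells at DN1 and below it at DN2. The median level of the 35 genes at DN1 was 0.26 in WT, 1.07 in Ezh2Δ/Δ, 1.1 in double-deleted and 1.45 in p53Δ/Δ cells. At DN2 it was 1.56, 1.99, 1.73 and 1.12 in the same order, and at DN3 1.72, 1.74, 1.46 and 1.43. WT DN1 was the lowest of the 12 non-leukemic arrays for 24 of the 35 genes. Without that 1 array the median step over the genotypes was 0.38 in place of 0.60.

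**Figure D2:**
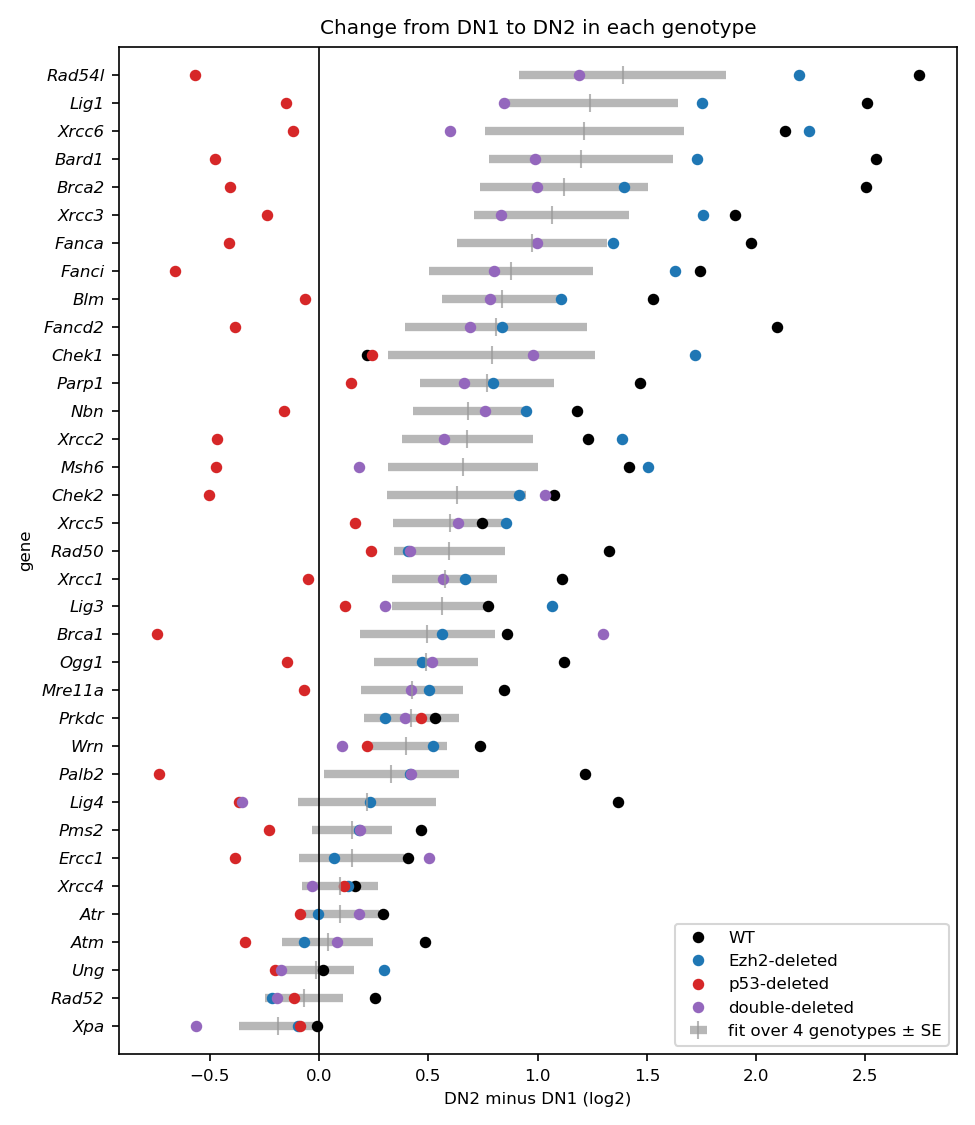
DN2 minus DN1 difference in log2 level (x axis) for each of the 35 repair genes (y axis), as 1 point for each genotype, with the fitted difference over the 4 genotypes and its standard error in grey. The p53Δ/Δ points lie between -0.74 and 0.47, while the WT points reach 2.75.

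Homologous recombination held both the largest step of the 35 genes and some of the smallest. Rad54l, a DNA translocase that helps strands pair, read -1.45, 1.29 and 1.18 in WT DN1, DN2 and DN3, -0.67, 1.52 and 0.94 in Ezh2Δ/Δ, 0.66, 0.09 and 0.91 in p53Δ/Δ, and 0.37, 1.56 and 1.14 in double-deleted cells. Its DN1 levels were low on the WT and Ezh2Δ/Δ arrays and its p53Δ/Δ levels stayed within 1 unit over the stages; the fitted step was 1.39 ± 0.47 (SE, 4 arrays a stage; limma adjusted p = 0.179). Bard1, the partner that Brca1 needs as a ubiquitin ligase, read 0.32, 2.87 and 2.60 in WT, 2.23, 3.96 and 3.33 in Ezh2Δ/Δ, 2.95, 2.47 and 3.22 in p53Δ/Δ, and 1.66, 2.65 and 2.36 in double-deleted cells. The DN1 and DN2 groups of Rad54l and of Bard1 overlapped. The other probes of Bard1 had DN2 minus DN1 differences of 1.25 and 0.32, the first close to the step of the probe used. The size of the Bard1 step therefore depends on the probe. Brca2, which loads the recombinase onto single strands, and Xrcc3, of the complexes that assist it, had fitted steps of 1.12 ± 0.39 and 1.06 ± 0.35 (limma adjusted p = 0.182 and 0.175), and both were lower at DN2 than at DN1 in p53Δ/Δ cells alone. In the Fanconi pathway, Fanca read 0.79, 2.77 and 2.35 in WT, 0.64, 1.99 and 1.77 in Ezh2Δ/Δ, 1.60, 1.19 and 1.43 in p53Δ/Δ, and 2.04, 3.04 and 2.62 in double-deleted DN1, DN2 and DN3. Its lowest non-leukemic levels were those of WT and Ezh2Δ/Δ DN1, and its step was 0.98 ± 0.34 (adjusted p = 0.187).

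In the other groups the same order of genotypes recurred for the replication ligase Lig1, which read 3.38, 5.89 and 5.94 in WT and 5.66, 5.51 and 6.13 in p53Δ/Δ DN1, DN2 and DN3. Its fitted step was 1.24 ± 0.41 (limma adjusted p = 0.171). Atm and Atr had steps of 0.04 ± 0.21 and 0.09 ± 0.18, and Ung, which removes uracil from DNA, had one of -0.02 ± 0.17. Near 0 as well were Xrcc4, the scaffold of Lig4, at 0.09 ± 0.17, Pms2, a mismatch repair endonuclease, at 0.15 ± 0.18 and Ercc1 at 0.15 ± 0.24. Xpa, at -0.19 ± 0.18, Rad52, at -0.07 ± 0.18, and Ung were the 3 genes with a negative value. In between lay Mre11a, the nuclease of the break sensing complex, at 0.43 ± 0.23 and Wrn, a RecQ helicase, at 0.40 ± 0.19. Rad50, the ATPase of the break sensing complex, had DN1 and DN2 levels that did not overlap. It read 1.41 and 2.73 in WT, 2.36 and 2.76 in Ezh2Δ/Δ, 2.24 and 2.48 in p53Δ/Δ, and 2.32 and 2.73 in double-deleted DN1 and DN2, with a step of 0.60 ± 0.25 (limma adjusted p = 0.239). Without WT DN1 the step of Rad50 was 0.31, that of Lig1 0.80, that of Brca2 0.73 and that of Bard1 0.77.

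The step was also fitted without the 3 p53Δ/Δ arrays, a choice made after the values were seen. Then 10 of the 35 genes rose from DN1 to DN2: Nbn, Brca2, Bard1, Rad54l, Xrcc2, Xrcc3, Fanca, Fanci, Blm and Lig1, with adjusted p-values (limma) between 0.0219 and 0.0428. Rad54l rose by 2.04 ± 0.36, Bard1 by 1.76 ± 0.34 for the probe used, and Lig1 by 1.70 ± 0.39. Fanca, which belongs to the Fanconi core complex, rose by 1.44 ± 0.26. In that fit 11.2% of all features were called. Leaving out 1 array alone also moved the count of called genes from 0 to 9 without p53Δ/Δ DN1 and to 6 without p53Δ/Δ DN2. The share of all features called moved as well, from 1.38% to 9.53% and 6.53%.

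The difference between genotypes was then tested itself, in a comparison also added after the values were seen. It used DN3 as well: the step was taken from DN1 to the mean of DN2 and DN3. The step without p53 deletion (WT and Ezh2Δ/Δ) was subtracted from the step with it (p53Δ/Δ and double-deleted), giving the difference of steps. It was negative for 34 of the 35 genes with a median of -0.69, against -0.07 over all features. An unadjusted p under 0.05 was found for 14 of the 35, and for 4611 of all 26935 features. No gene passed the threshold, and 0.0371% of all features were called. Xrcc6, the Ku70 subunit that binds broken ends, came nearest, with -2.11 ± 0.33 (limma adjusted p = 0.0978), followed by the mismatch sensor Msh6 with -1.37 ± 0.37 (adjusted p = 0.165). Xrcc6 read 4.27 and 6.40 in WT, 5.63 and 7.87 in Ezh2Δ/Δ, 8.04 and 7.92 in p53Δ/Δ, and 6.40 and 7.0 in double-deleted DN1 and DN2. Msh6 read 3.59 and 5.01, 4.04 and 5.55, 4.88 and 4.41, and 5.16 and 5.34 in the same order. For both genes the 2 DN1 arrays without p53 deletion were the lowest of the 4, and with the percentile taken over probes detected on all arrays 9 of the 35 genes, not 1, had a positive value, while the median of all features moved by 0.34. The median of the 35 genes was then -0.35, with normexp background correction it was -0.38, and without WT DN1 it was -0.42.

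Genes of proliferation and DNA replication, a separate list of 25 measured genes, moved with this pattern. Their median DN2 minus DN1 difference was 2.46 in WT, 1.92 in Ezh2Δ/Δ, -0.26 in p53Δ/Δ and 0.90 in double-deleted cells. Their median level at DN1 was 2.19 in WT, 3.26 in Ezh2Δ/Δ, 4.35 in p53Δ/Δ and 4.0 in double-deleted cells. Across the 12 non-leukemic arrays the medians of both lists had a Pearson r of 0.969 and a Spearman rho of 0.944, given as a description, since the points share slides, scaling and stages.

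**Figure D3:**
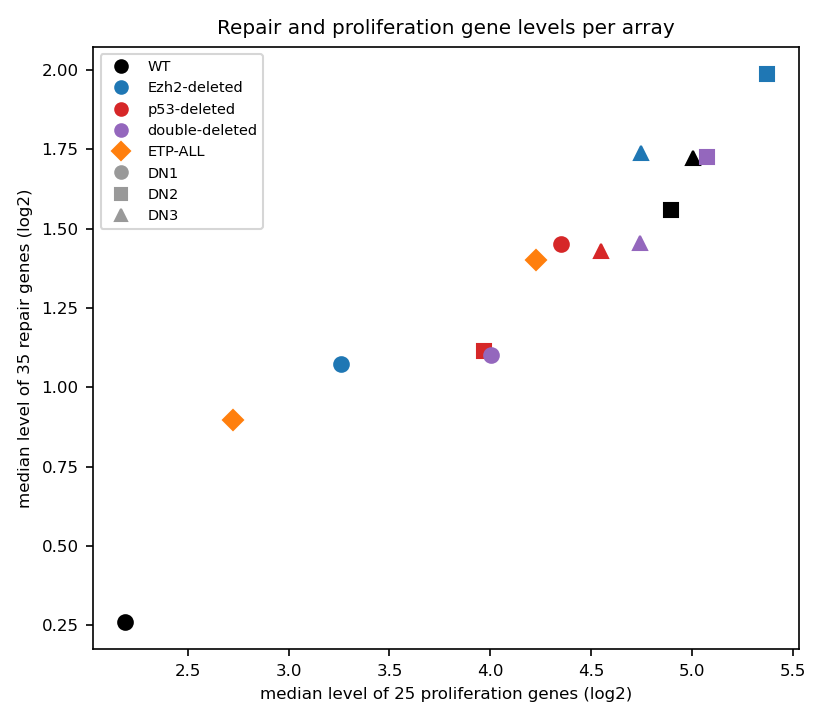
Median log2 level of the 35 repair genes (y axis) against the median log2 level of 25 proliferation and replication genes (x axis), 1 point for each of the 14 arrays, coloured by genotype and shaped by stage. WT DN1 sits alone at the lower left at 2.19 and 0.26, and Ezh2Δ/Δ DN2 at the upper right at 5.37 and 1.99.

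Markers of other cells also moved with the stage. All 8 natural killer cell markers were well above background on each of the 4 DN1 arrays, with a median level between 0.99 and 4.05; at DN2 they numbered 2 in WT, 4 in Ezh2Δ/Δ, 8 in p53Δ/Δ and 4 in double-deleted cells, with a median level between -4.78 and -1.14. Of 7 B cell markers, between 4 and 6 were above background at DN1 and 1 or 2 at DN2. Of 8 myeloid markers, between 5 and 8 were so at DN1 and between 4 and 8 at DN2. The part of proliferation and of these other cells in the differences of the repair genes was not tested. In bulk samples such as these, fewer cells of a type and less RNA per cell cannot be told apart.

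The promoters of the genes were then read, because the levels of the 35 genes followed those of replication genes. RefSeq windows of 300 bases, from 250 before to 50 after the annotated start (GRCm38.p6), were matched by symbol for 29 of the 35 genes. For a symbol with several windows only the first listed was searched. Cores of the type bound by E2F factors, which drive genes of the cell cycle, were searched in 3 spellings on both strands. The core TTGGCGC was in 2 of the 29 windows (6.9%) and in 2.54% of all 27025 windows, 1 for each symbol. The core TTCGCGC was in 2 (6.9%, against 1.59%), and the core TTCCCGC was in 10 (34.5%, against 4.66%). At least 1 of these was in 14 windows (48.3%, against 8.21%). CCAAT, on either strand, was in 55.2% of the members' windows and 37.9% of all, and TTTGAA, part of the cell cycle homology region, in 3.45% and 18.1%. The median DN2 minus DN1 difference was 0.56 for the 14 genes with such a core and 0.57 for the 15 without.

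The windows of 6 genes with 1 annotated start are printed 5′ to 3′ on the gene's strand, with E2F-type cores in capitals: the 4 such genes with the largest step and the 2 with the step nearest to 0, to let the letters be compared beside the steps. They are Xrcc6 (chr15:82016119-82016418, plus strand, step 1.21), Bard1 (chr1:71102923-71103222, minus strand, step 1.2), Brca2 (chr5:150522371-150522670, plus strand, step 1.12), Xrcc3 (chr12:111813830-111814129, minus strand, step 1.06), Ung (chr5:114130185-114130484, plus strand, step -0.02) and Atm (chr9:53536622-53536921, minus strand, step 0.04).
Xrcc6: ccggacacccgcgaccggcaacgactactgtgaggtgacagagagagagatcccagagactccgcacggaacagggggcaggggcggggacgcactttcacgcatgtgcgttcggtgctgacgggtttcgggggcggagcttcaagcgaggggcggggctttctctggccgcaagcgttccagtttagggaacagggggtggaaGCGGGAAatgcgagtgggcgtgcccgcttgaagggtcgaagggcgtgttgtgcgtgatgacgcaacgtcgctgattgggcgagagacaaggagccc
Bard1: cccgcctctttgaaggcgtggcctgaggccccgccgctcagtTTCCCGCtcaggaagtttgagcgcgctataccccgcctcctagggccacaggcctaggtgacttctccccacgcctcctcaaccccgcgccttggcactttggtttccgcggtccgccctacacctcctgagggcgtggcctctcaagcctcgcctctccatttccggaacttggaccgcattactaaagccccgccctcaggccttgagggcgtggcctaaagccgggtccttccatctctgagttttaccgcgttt
Brca2: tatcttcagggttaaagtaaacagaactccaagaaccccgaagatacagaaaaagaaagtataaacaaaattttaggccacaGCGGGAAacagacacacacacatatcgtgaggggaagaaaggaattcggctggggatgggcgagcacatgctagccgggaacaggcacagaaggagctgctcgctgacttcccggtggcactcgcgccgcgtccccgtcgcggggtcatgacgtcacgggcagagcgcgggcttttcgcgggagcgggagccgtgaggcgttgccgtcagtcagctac
Xrcc3: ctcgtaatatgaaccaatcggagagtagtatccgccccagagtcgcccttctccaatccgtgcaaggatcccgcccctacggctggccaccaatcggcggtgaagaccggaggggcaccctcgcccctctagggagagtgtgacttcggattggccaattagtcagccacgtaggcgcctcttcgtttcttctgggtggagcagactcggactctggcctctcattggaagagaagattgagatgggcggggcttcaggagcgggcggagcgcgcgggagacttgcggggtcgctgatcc
Ung: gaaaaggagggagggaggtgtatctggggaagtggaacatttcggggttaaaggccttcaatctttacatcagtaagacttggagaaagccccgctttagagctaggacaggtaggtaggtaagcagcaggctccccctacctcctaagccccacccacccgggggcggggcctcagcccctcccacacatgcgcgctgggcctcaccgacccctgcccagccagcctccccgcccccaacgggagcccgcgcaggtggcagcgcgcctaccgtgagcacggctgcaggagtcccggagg
Atm: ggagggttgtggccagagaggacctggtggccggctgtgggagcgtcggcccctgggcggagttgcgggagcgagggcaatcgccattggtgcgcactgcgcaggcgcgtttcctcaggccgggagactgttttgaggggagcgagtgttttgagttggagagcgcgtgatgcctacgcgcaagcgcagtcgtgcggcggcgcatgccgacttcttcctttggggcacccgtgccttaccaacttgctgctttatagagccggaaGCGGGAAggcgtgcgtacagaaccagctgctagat
Of the genes with the larger steps, Xrcc6, Bard1 and Brca2 each hold 1 core and Xrcc3 holds none, and of those with a step near 0, Atm holds 1 and Ung none. A match is a description of the letters in this window and not a binding site.

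Between DN2 and DN3 the repair genes showed no common direction. Of the 35 genes, 18 were higher at DN3, the median difference was 0.02, and none was called or had an unadjusted p under 0.05 (limma); over all features 0.0223% were called. The difference over the 4 genotypes ran from -0.38 to 0.47. The checkpoint kinase Chek1 read -2.16 in p53Δ/Δ DN2 and -0.40 in p53Δ/Δ DN3, while it was lower at DN3 than at DN2 in WT (-3.68 and -2.69), in Ezh2Δ/Δ (-2.78 and -1.63) and in double-deleted cells (-2.89 and -2.41). Chek1 was not well above background on the WT DN3 and Ezh2Δ/Δ DN3 arrays.

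The next comparison asked what loss of both genes did to the repair genes relative to WT, over the 3 stages. Of the 35 genes, 30 had a higher level in double-deleted cells and the median difference was 0.28, against -0.11 over all features. None was called and none had an unadjusted p under 0.05 (limma), while 7.16% of all features were called. Atm, the kinase activated by double-strand breaks, read -0.45, 0.03 and -0.02 in WT and 0.36, 0.44 and 0.38 in double-deleted DN1, DN2 and DN3. Its groups did not overlap, and its difference was 0.54 ± 0.24 (limma adjusted p = 0.189). Fancd2, which is ubiquitinated at stalled forks, read -3.93, -1.84 and -1.90 in WT and -2.01, -1.32 and -1.21 in double-deleted cells, with a difference of 1.04 ± 0.48 (adjusted p = 0.2). Fancd2 was not well above background in WT DN1. The median difference was 0.01 without WT DN1 and 0.05 on slide 1 alone, where only DN2 and DN3 are shared. Of the 25 proliferation and replication genes 22 were also higher in double-deleted cells, with a median of 0.65, and 7 of 8 natural killer cell markers were lower, with a median of -1.12; none of either list passed the threshold. The part of these in the differences of the repair genes was not tested.

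Ezh2Δ/Δ and p53Δ/Δ cells could be compared on 1 slide. The median difference of the 35 genes, Ezh2Δ/Δ minus p53Δ/Δ, was 0.04, and 21 were higher in Ezh2Δ/Δ cells. This direction is not settled: with the percentile over detected probes the median was -0.09 with 13 genes higher, with quantile normalization 16 genes were higher, and without p53Δ/Δ DN2 or p53Δ/Δ DN1 the median was -0.21 or 0.37. Prkdc, the catalytic subunit of the DNA-dependent protein kinase that holds broken ends for joining, was the 1 gene called. It read 1.21, 1.51 and 1.14 in Ezh2Δ/Δ and 0.09, 0.55 and -0.22 in p53Δ/Δ DN1, DN2 and DN3, so every Ezh2Δ/Δ array lay above every p53Δ/Δ array. The difference was 1.15 ± 0.25 (SE, n = 3 and 3; limma adjusted p = 0.0417), in a comparison in which 3.95% of all features were called. Prkdc read 0.12, 0.65 and 0.85 in WT and -0.01, 0.39 and 0.45 in double-deleted cells, all below the Ezh2Δ/Δ arrays. Its call was lost in 13 of 21 alternatives, among them slide 2 alone (1.15, adjusted p = 0.179) and the omission of any 1 of the 6 arrays compared; the difference stayed between 0.78 and 1.28. Markers of other cells differed too: all 8 myeloid markers (median 1.77, 1 called) and all 6 measured B cell markers (median 1.26, 1 called) were higher in Ezh2Δ/Δ cells, and 5 of 6 markers of CD4+CD8+ thymocytes were lower (2 called). Their part in the Prkdc difference was not tested.

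The remaining comparisons set slide 2 against slides 1 and 3. They share arrays with each other, and genotype and slide cannot be told apart in any of them. For p53Δ/Δ against WT 6 of the 35 genes rose and 2 fell, where 36.5% of all features were called. For Ezh2Δ/Δ against WT 5 rose and 2 fell, where 35.4% were called. Double-deleted cells had 5 higher and 2 lower than p53Δ/Δ cells, with 31.6% of features called, and 5 higher and 3 lower than Ezh2Δ/Δ cells, with 30.8% called. Both counts of 5 include Brca1, which passed the filter on dim probes only through 2 arrays of the double-deleted genotype, was at background on every Ezh2Δ/Δ and p53Δ/Δ array and reversed in sign with normexp correction, so it supports no difference. The share of the 35 genes called, from 7 or 8 genes, was below the share of all features in each.

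**Figure D4:**
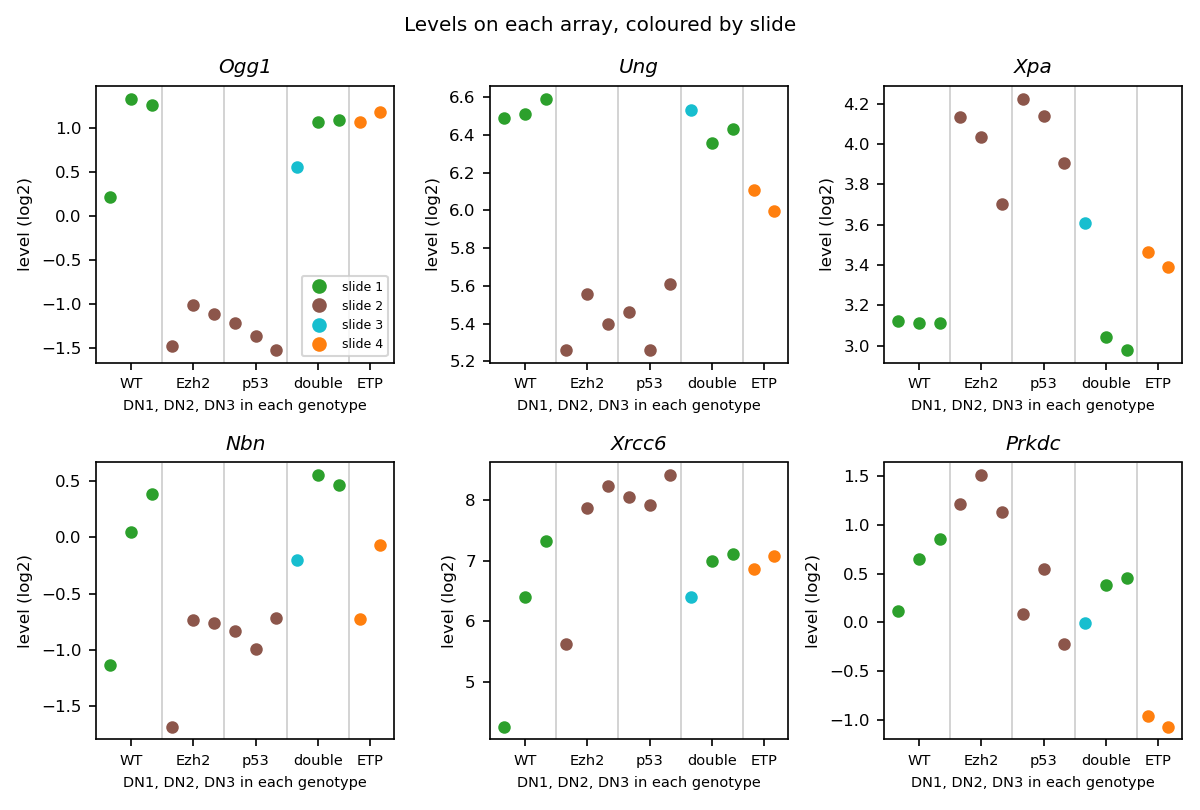
Log2 level of Ogg1, Ung, Xpa, Nbn, Xrcc6 and Prkdc (one panel each, own y axis) on the 14 arrays, ordered DN1, DN2, DN3 within each genotype and then both leukemias, coloured by slide. For Ogg1 and Ung all 6 points of slide 2 lie below the points of the other slides, and for Xpa all 6 lie above them.

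The base excision genes Ogg1, the glycosylase that removes oxidised guanine, and Ung had the smallest adjusted p-values. Ogg1 read 0.22, 1.34 and 1.26 in WT, -1.48, -1.01 and -1.12 in Ezh2Δ/Δ, -1.21, -1.36 and -1.52 in p53Δ/Δ, 0.56, 1.07 and 1.1 in double-deleted DN1, DN2 and DN3, and 1.07 and 1.19 in leukemias 13 and 19. Every slide 2 array was below every array of the other slides. Ogg1 fell by 2.30 ± 0.27 in p53Δ/Δ (limma adjusted p = 0.000322) and by 2.14 ± 0.27 in Ezh2Δ/Δ cells (adjusted p = 0.000555) relative to WT. The double-deleted levels overlapped those of WT.

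Ung showed the same split by slide. It read 6.49, 6.51 and 6.59 in WT, 5.26, 5.56 and 5.4 in Ezh2Δ/Δ, 5.46, 5.26 and 5.61 in p53Δ/Δ, 6.53, 6.36 and 6.43 in double-deleted cells, and, in leukemias 13 and 19, 6.11 and 6.00. It fell by 1.09 ± 0.20 in p53Δ/Δ and by 1.13 ± 0.20 in Ezh2Δ/Δ cells (limma adjusted p = 0.00316 and 0.00298). The calls of Ogg1 and Ung held in each of the 20 alternatives of each comparison. Lig3, the ligase that works with Xrcc1 on single-strand breaks, read -0.01, 0.76 and 1.19 in WT, 1.07, 2.14 and 1.77 in Ezh2Δ/Δ, 0.91, 1.02 and 1.01 in p53Δ/Δ, 0.49, 0.79 and 1.00 in double-deleted cells, and, in leukemias 13 and 19, 1.66 and 1.14. Its Ezh2Δ/Δ and WT arrays overlapped, and it rose by 1.01 ± 0.26 in Ezh2Δ/Δ cells relative to WT (adjusted p = 0.0170). That call was lost without WT DN1, WT DN2 or Ezh2Δ/Δ DN2, with changes between 0.57 and 1.22 over its alternatives. Parp1, which binds breaks and marks them with poly(ADP-ribose), was 1.11 ± 0.35 higher in double-deleted than in p53Δ/Δ cells (adjusted p = 0.0417), a call lost in 10 of 20 alternatives.

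In nucleotide excision repair, Xpa, which verifies the lesion, read 3.12, 3.11 and 3.11 in WT, 4.13, 4.04 and 3.70 in Ezh2Δ/Δ, 4.23, 4.14 and 3.91 in p53Δ/Δ, 3.61, 3.04 and 2.98 in double-deleted cells, and, in leukemias 13 and 19, 3.47 and 3.39. All 6 slide 2 arrays were above the others, and Xpa rose by 0.97 ± 0.21 in p53Δ/Δ (limma adjusted p = 0.00658) and by 0.84 ± 0.21 in Ezh2Δ/Δ cells (adjusted p = 0.0135) relative to WT. The second of these calls was lost without WT DN2 (0.85, adjusted p = 0.0525) and without Ezh2Δ/Δ DN2 (0.78, adjusted p = 0.0557). Ercc1, part of the nuclease that cuts beside the lesion, read 0.26, 0.67 and 1.26 in WT, 1.09, 1.16 and 1.58 in Ezh2Δ/Δ, 1.83, 1.44 and 1.53 in p53Δ/Δ, 0.98, 1.49 and 1.23 in double-deleted cells, and, in leukemias 13 and 19, 0.90 and 0.98. It rose by 0.87 ± 0.28 in p53Δ/Δ cells relative to WT (adjusted p = 0.0359), a call lost in 9 of 20 alternatives.

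End joining had 4 genes called in these comparisons. Xrcc6 read 7.32 in WT DN3, 8.23 in Ezh2Δ/Δ DN3, 8.41 in p53Δ/Δ DN3, 7.12 in double-deleted DN3, and 6.86 and 7.08 in leukemias 13 and 19, beside the DN1 and DN2 levels given above. All 3 p53Δ/Δ arrays lay above the WT arrays, and Xrcc6 rose by 2.13 ± 0.52 relative to WT (limma adjusted p = 0.0128; 1.62 and 0.0533 without WT DN1). Lig4, the ligase that seals joined ends, read 1.27, 2.64 and 2.94 in WT, 2.95, 3.18 and 3.40 in Ezh2Δ/Δ, 3.79, 3.42 and 4.25 in p53Δ/Δ, 2.99, 2.64 and 2.82 in double-deleted cells, and, in leukemias 13 and 19, 3.27 and 3.29. Its p53Δ/Δ and WT arrays did not overlap, and it rose by 1.53 ± 0.36 (adjusted p = 0.0109), with a call that held in all 20 alternatives. Xrcc5, the Ku80 partner of Xrcc6, read 1.09, 1.83 and 2.80 in WT, 2.28, 3.13 and 3.07 in Ezh2Δ/Δ, 2.09, 2.26 and 2.15 in p53Δ/Δ, 1.48, 2.11 and 2.40 in double-deleted cells, and, in leukemias 13 and 19, 1.44 and 0.78. Its Ezh2Δ/Δ and WT arrays overlapped, and it rose by 0.92 ± 0.30 (adjusted p = 0.0409), a call lost in 11 of 20 alternatives. Prkdc, with its levels given above, rose by 0.75 ± 0.25 in Ezh2Δ/Δ cells relative to WT (adjusted p = 0.0467) and was 1.01 ± 0.25 lower in double-deleted than in Ezh2Δ/Δ cells (adjusted p = 0.0169), calls lost in 11 and 4 of 20 alternatives.

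In the break sensing complex, Nbn, which carries the complex to breaks and activates Atm, read -1.13, 0.05 and 0.39 in WT, -1.68, -0.73 and -0.76 in Ezh2Δ/Δ, -0.83, -0.99 and -0.71 in p53Δ/Δ, -0.20, 0.55 and 0.46 in double-deleted cells, and, in leukemias 13 and 19, -0.73 and -0.07. Every double-deleted array was above every slide 2 array, and the difference was 1.11 ± 0.29 from p53Δ/Δ (limma adjusted p = 0.0201) and 1.33 ± 0.29 from Ezh2Δ/Δ cells (adjusted p = 0.01). Those calls were lost in 5 and 1 of 20 alternatives. Blm, the helicase that dissolves joined strands, read 0.37, 1.89 and 1.99 in WT, 1.84, 2.94 and 2.65 in Ezh2Δ/Δ, 2.23, 2.16 and 2.76 in p53Δ/Δ, 1.2, 1.98 and 1.66 in double-deleted cells, and, in leukemias 13 and 19, 1.49 and 1.40. It rose by 1.06 ± 0.32 in Ezh2Δ/Δ and by 0.97 ± 0.32 in p53Δ/Δ cells relative to WT (adjusted p = 0.0293 and 0.0405), and these calls were lost in 6 and 12 of 20 alternatives.

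In homologous recombination, Rad52, which anneals single strands, read 0.18, 0.44 and 0.69 in WT, 0.98, 0.76 and 1.01 in Ezh2Δ/Δ, 1.23, 1.12 and 1.15 in p53Δ/Δ, 0.44, 0.24 and 0.32 in double-deleted cells, and, in leukemias 13 and 19, 0.67 and -0.13. The p53Δ/Δ arrays lay above the WT and the double-deleted arrays, and Rad52 rose by 0.73 ± 0.21 relative to WT (limma adjusted p = 0.0231), a call lost in 4 of 20 alternatives. Palb2, which links Brca1 to Brca2, read -3.46, -2.24 and -2.27 in WT, -3.92, -3.51 and -2.84 in Ezh2Δ/Δ, -2.49, -3.22 and -2.72 in p53Δ/Δ, -2.07, -1.65 and -1.87 in double-deleted cells, and, in leukemias 13 and 19, -2.22 and -1.92. It was well above background on 1 of the 3 Ezh2Δ/Δ arrays, and its difference between double-deleted and Ezh2Δ/Δ cells (1.56 ± 0.36, adjusted p = 0.0118) was -0.23 with normexp background correction. Brca1, the recombination mediator, read -4.90, -4.04 and -4.02 in WT, -5.33, -4.77 and -5.17 in Ezh2Δ/Δ, -4.78, -5.52 and -5.04 in p53Δ/Δ, -4.41, -3.11 and -3.64 in double-deleted cells, and, in leukemias 13 and 19, -2.37 and -4.40. It was well above background only in double-deleted DN2 and in leukemia 13, its measured means in double-deleted, p53Δ/Δ and Ezh2Δ/Δ cells were -3.72, -5.11 and -5.09, and no fold is given. With normexp correction the difference of double-deleted from p53Δ/Δ and Ezh2Δ/Δ cells was -0.96 and -1.08, the opposite sign.

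The counts in these comparisons rested on single arrays as well. For Ezh2Δ/Δ against WT 2 genes were called without WT DN2 or Ezh2Δ/Δ DN2, with 23.5% and 24.5% of all features called. There were 4 without WT DN1, Ezh2Δ/Δ DN1 or Ezh2Δ/Δ DN3 (25.5%, 26.9% and 25.2% of all features). For p53Δ/Δ against WT 5 were called without WT DN1 or WT DN2 (29.6% and 25.6% of all features). For double-deleted against p53Δ/Δ cells 2 were called without double-deleted DN2 or DN3 (17.9% and 19.7% of all features). There were 4 without p53Δ/Δ DN3 (24.5%) and 11 without p53Δ/Δ DN1 (28.8%). For double-deleted against Ezh2Δ/Δ cells 2 were called without double-deleted DN2 (15.1% of all features) and 4 without Ezh2Δ/Δ DN2 (20.1%). There were 5 without double-deleted DN3, Ezh2Δ/Δ DN1 or Ezh2Δ/Δ DN3 (19.8%, 21.8% and 20.9%). The count was 13 without WT DN1 (33%) and 14 without p53Δ/Δ DN1 (32.9%). With the percentile over probes detected on all arrays, 4 rose and 5 fell for Ezh2Δ/Δ against WT (31.9% of all features called). For double-deleted against Ezh2Δ/Δ cells 10 were then higher and 2 lower (27.7%). Among the genes with several probes, the other probe of Atm moved the opposite way by over 0.5 between double-deleted and p53Δ/Δ cells (-0.90, against 0.55), as did another of Bard1 between p53Δ/Δ and WT cells (-0.76, against 0.95).

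The last comparison set the leukemias against double-deleted DN2 cells, which share their genotype and gate; the fit used all 14 arrays. Of the 35 genes, 28 had a lower level in the leukemias and the median difference was -0.36, against -0.01 over all features. Prkdc was the 1 gene called, where 2.49% of all features were called. It read -0.96 and -1.07 in leukemias 13 and 19, below each of the 12 non-leukemic arrays, and fell by 1.51 ± 0.30 relative to double-deleted DN2 in the fit (0.39 on that array; limma adjusted p = 0.0296). Both leukemias thus lay close together, but the reference is 1 array.

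**Figure D5:**
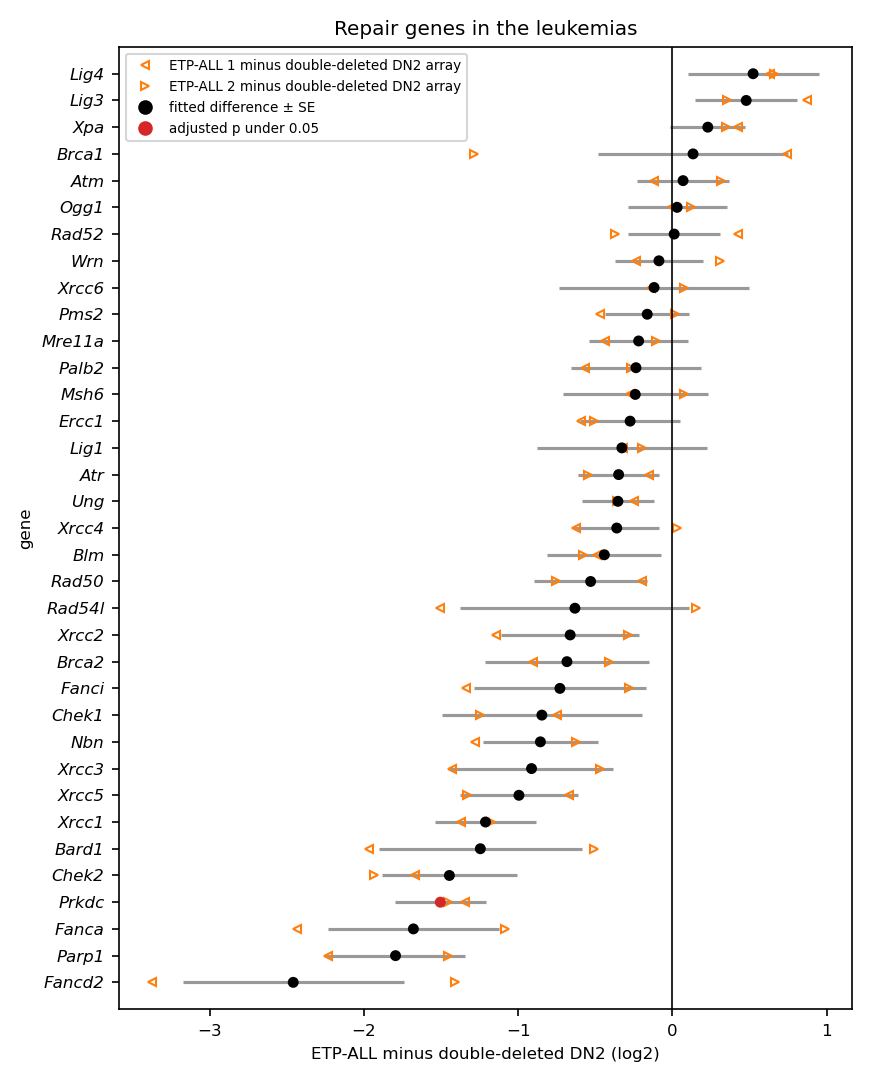
Leukemia minus double-deleted DN2 difference in log2 level (x axis) for each of the 35 repair genes (y axis), as the fitted difference with its standard error (dots) and as each leukemia minus the 1 double-deleted DN2 array (open triangles). Prkdc is the red dot at -1.51, and Fancd2 has the lowest fitted value at -2.46.

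Parp1 read 1.17 and 1.94 in leukemias 13 and 19 against 3.40 in double-deleted DN2, a difference of -1.80 ± 0.45 (limma adjusted p = 0.0749). Its non-leukemic levels ran from 1.29, 2.76 and 3.42 in WT and 1.93, 2.72 and 2.65 in Ezh2Δ/Δ to 1.95, 2.09 and 2.01 in p53Δ/Δ and 2.74, 3.40 and 3.23 in double-deleted DN1, DN2 and DN3. Leukemia 13 was below all of these, and leukemia 19 below all but 2. Xrcc1, the scaffold of single-strand break repair, read 2.71 and 2.91 in leukemias 13 and 19, 4.08 in double-deleted DN2 and between 2.79 and 4.52 over all non-leukemic arrays. Only WT DN1 (2.79) lay below the higher leukemia. It had a difference of -1.21 ± 0.33 (adjusted p = 0.0919), Fancd2 of -2.46 ± 0.72 (adjusted p = 0.113) and Chek2 of -1.45 ± 0.44 (adjusted p = 0.125). Fancd2 was not well above background in leukemia 13, where it read -4.69. All 3 Fanconi genes and all 3 of the break sensing complex had a negative difference, with medians of -1.68 and -0.53, while the median in nucleotide excision repair was -0.02. Rad54l differed between the leukemias, at 0.05 in 13 and 1.71 in 19. Another probe of Lig3 had a mean difference of -0.56, against 0.61 for the probe used.

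Proliferation and replication genes were lower too: all 25 had a negative difference, with a median of -1.31, and none passed the threshold. Their median level was 2.72 in leukemia 13, 4.23 in leukemia 19 and 5.07 in double-deleted DN2, and that of the 35 repair genes was 0.90, 1.40 and 1.73. Of the markers of other cells, 3 of 8 natural killer cell markers were above background in each leukemia and 4 in double-deleted DN2, and 5 of 8 myeloid markers in each leukemia and 8 in double-deleted DN2. The part of these in the differences of the repair genes was not tested. The Prkdc call was lost in 10 of 23 alternatives, with adjusted p-values (limma) up to 0.66 and changes between -1.61 and -1.18. Among these were the fits without leukemia 13 (-1.56, adjusted p = 0.0818), without leukemia 19 (-1.45, adjusted p = 0.0779), without double-deleted DN2 (-1.61, adjusted p = 0.151) and without the 6 arrays of slide 2 (-1.40, adjusted p = 0.129). Leaving out WT DN2, Ezh2Δ/Δ DN2, Ezh2Δ/Δ DN3, double-deleted DN1 or double-deleted DN3 gave 0 called repair genes. Leaving out WT DN1 or WT DN3 gave 2, with 2.25% and 2.44% of all features called.

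The wider repair network, a list of 84 other genes of checkpoint signalling and repair of which 83 were tested, was read in the same fits. From DN1 to DN2, 65 of the 83 had a positive difference, with a median of 0.38 and none called. Between double-deleted and WT cells 1 rose and 0 fell: Neil2, a base excision glycosylase, was at least 3.72-fold higher in double-deleted cells, where its mean was -1.49, than in WT cells, where no array showed it well above background (mean -4.18; limma adjusted p = 0.00328). Such a bound divides the brighter mean by the lowest signal that still passed as well above background on the dimmer arrays. Between Ezh2Δ/Δ and p53Δ/Δ cells 1 rose: Hus1, part of the clamp that activates Atr, was 1.44 ± 0.23 higher in Ezh2Δ/Δ cells (adjusted p = 0.0135). In the leukemias 66 of 83 had a negative difference and 1 fell: Rmi2, which works with Blm, was at least 4.45-fold lower than in double-deleted DN2 (adjusted p = 0.0136). Of all features 1.38% were called from DN1 to DN2 and 7.16% between double-deleted and WT cells. The shares were 3.95% between Ezh2Δ/Δ and p53Δ/Δ cells and 2.49% in the leukemias. The share called among the 83 was below these in each comparison.

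In the comparisons across slides, 10 of the 83 rose and 2 fell in p53Δ/Δ, and 14 rose and 2 fell in Ezh2Δ/Δ cells relative to WT. Smc5, of a complex that holds sister chromatids during repair, fell by 1.43 ± 0.18 in p53Δ/Δ and by 1.49 ± 0.18 in Ezh2Δ/Δ cells (limma adjusted p = 0.000450 and 0.000421), with means of 3.64 in double-deleted and 3.97 in WT cells. Double-deleted cells had 5 higher and 3 lower than p53Δ/Δ cells and 6 higher and 9 lower than Ezh2Δ/Δ cells. These are the same slide 2 contrasts as for the 35 genes, and the share called among the 83 was below the background given above in each.

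Of 20 genes known to be induced by p53 after damage, 19 were tested. Cdkn1a, the inhibitor of cyclin-dependent kinases, rose from DN1 to DN2 by 2.72 ± 0.28 over the 4 genotypes (limma adjusted p = 0.00210), where no repair gene was called, but 13 of the 19 had a lower level at DN2 and the median of the list was -0.25. On slide 2, 2 of the 19 were called between Ezh2Δ/Δ and p53Δ/Δ cells, and both were higher in Ezh2Δ/Δ cells, beside 3.95% of all features called: Phlda3, an inhibitor of Akt, by 3.16 ± 0.36 (adjusted p = 0.00305) and Cdkn1a by 1.44 ± 0.32 (adjusted p = 0.0424), although its arrays overlapped. Of the 19, 8 were lower in Ezh2Δ/Δ cells, and the median of the list was 0.11. Phlda3 had mean levels of 2.59 in Ezh2Δ/Δ, -0.57 in p53Δ/Δ, 0.58 in WT and 0.84 in double-deleted cells. Between double-deleted and WT cells none of the 19 was called (limma), with 13 higher and 6 lower. There 3 of the 19, and 7307 of all 26935 features, had an unadjusted p under 0.05. In the leukemias 1 of the 19 fell, beside 2.49% of all features called. Pmaip1, which encodes the death factor Noxa, fell by 2.67 ± 0.43 relative to double-deleted DN2 (limma adjusted p = 0.0142).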

How the data were processed

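Arrays of 14 samples were scanned and read with Agilent Feature Extraction 10.7.1.1, per the file headers; the values used are processed intensities, which the authors deposited per spot after background subtraction and spatial detrending within the array; the software replaces the signal of very dim spots by a low surrogate value. The deposited value table holds the same signal divided by 1 constant for each array, on a linear, uncentred scale (75th percentiles between 1.002 and 1.004, medians between 0.065 and 0.105); the sources used here do not give how the authors chose that constant. Per the labels' protocols, 20 ng of total RNA was amplified and labelled with Cy3.

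Without control spots, 59305 spots of 55681 probes remained; spots of 1 probe were averaged, leaving out spots marked as outliers. The files give sequence accessions, not gene symbols: 28347 probes matched 1 RefSeq symbol, 10 several or conflicting symbols and 27324 none. For 4407 probes the accession differed between the 2 array grid files. Both accessions were then matched, and a probe with conflicting symbols was left unnamed. Levels were log2 intensities minus each array's 75th percentile. Probes well above background on at least 2 of 14 arrays were kept. limma 3.58.1 (R 4.3.3) was fitted on all features, with genotype and stage as additive terms over 12 arrays, and with a leukemia term over 14 arrays; the threshold was a Benjamini-Hochberg adjusted p of 0.05 over all features. With 1 array for each genotype and stage the error comes from the disagreement between stages and genotypes. Values on every array are given for the 14 called members with the smallest adjusted p, the first of each role group is described, and of the wider lists the genes named are among the 4 with the smallest adjusted p in a comparison; the other members with array values were chosen after their values were seen. Promoter windows for Rad50, Nbn, Xrcc2, Prkdc, Fancd2 and Wrn were not used here. The members and lists were chosen with earlier results of these data known. Alternatives changed the scaling, background correction, probe filter, choice of probe, slides and arrays.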

Additional observations from a re-analysis of the deposited data

Results flagged for a closer look

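Within groups of 4 to 10 arrays, 45 tests for a lone extreme array were made on the repair genes, and 1 passed, where chance passes about 1 in 20. Among the 4 DN1 arrays the Prkdc level of Ezh2Δ/Δ was 1.21, and those of WT, p53Δ/Δ and double-deleted cells were 0.12, 0.09 and -0.01; the gap to the nearest other array was 0.896 of the group's whole range. Ezh2Δ/Δ and p53Δ/Δ DN1 share slide 2, and Prkdc was also higher in Ezh2Δ/Δ than in p53Δ/Δ cells at DN2 (1.51 and 0.55) and DN3 (1.14 and -0.22).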

How the results depend on the processing

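Of the log2 changes of single genes recomputed under the alternatives, 1592 kept their direction and side of the threshold, 204 no longer passed it, 24 newly passed it and 9 reversed. The reversals all came with normexp background correction: Rrm2b read 0.35 for p53Δ/Δ and 0.52 for Ezh2Δ/Δ against WT, -0.75 for double-deleted against p53Δ/Δ and -0.91 against Ezh2Δ/Δ; Brca1 -0.96 and -1.08 in the last 2 comparisons, Fancg -0.47 against p53Δ/Δ, and Palb2 -0.23 and Neil2 -0.17 against Ezh2Δ/Δ. The cause was not tested. With normexp the number of repair genes called was 1 for double-deleted against WT, 0 for Ezh2Δ/Δ against p53Δ/Δ, 13 for double-deleted against p53Δ/Δ, 4 for the leukemias and 1 for the difference of steps; the features called were 9820 (1929 as reported), 330 (1065), 15844 (8511) and 1531 (671) in the first 4. With the percentile over detected probes the count was 11 for double-deleted against p53Δ/Δ and 2 for the leukemias (29.6% and 2.01% of all features called). Quantile normalization gave 3 for the leukemias (2.68% of all features called). Only probes above background on all arrays gave 2 there (2.62%) and 1 for the difference of steps (0.353%). No filter on dim probes, and slide 2 alone (89 features called), gave 0 for Ezh2Δ/Δ against p53Δ/Δ. One mean per group (0 features called), and the fit without slide 2 (89), gave 0 for the leukemias. Without the p53Δ/Δ arrays the DN2 against DN1 count was 10, with 11.2% of all features called. The percentile over detected probes moved the median of all features by -0.13 for DN2 against DN1, -0.23 for Ezh2Δ/Δ against WT and 0.20 for double-deleted against Ezh2Δ/Δ. Leaving out 1 array at a time gave counts of 0 to 9 for DN2 against DN1, 0 to 1 for Ezh2Δ/Δ against p53Δ/Δ, 5 to 8 for p53Δ/Δ against WT, 2 to 10 for Ezh2Δ/Δ against WT, 2 to 11 and 2 to 14 for double-deleted against p53Δ/Δ and Ezh2Δ/Δ, 0 to 2 for the leukemias, and 0 for the other 3. No paired analysis was possible because, with 1 array for each genotype and stage, no groups share more than 1 replicate number; the additive terms already compare stages within genotype and genotypes within stage. Signal limits Brca1, Palb2, Fancd2 and Chek1, which were near background on several arrays.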
